A study of Rattus norvegicus with 69 samples.

Results

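CA1 gene expression was compared between rats kept for 72 h and rats kept for 24 h in an unfamiliar environment (novelty stress, NES). The 72NES group holds 6 arrays and the 24NES group 10, which makes 16 of the 69 arrays of the series, chosen by their treatment labels and not by any measured value. Each array was hybridized with RNA from the CA1 region of 1 male F344 rat aged 3 to 5 months. NES rats lived in the same chamber as sleep-deprived (SD) rats, but with a rubberized grid laid across the platforms, which left them free to sleep. Both NES groups belong to cohort 1, as do 5 home cage (HC), 8 24SD and 8 72SD arrays that are used below for reference. HC and SD rats of cohort 1 had also been trained on active avoidance and the NES rats are not named among the trained animals, so that difference lies between NES and either of the other treatments but not between 72NES and 24NES. Rats were housed in pairs, and which subjects were paired is not given, so arrays were treated as independent, and p-values would be too small where paired rats resembled each other. Hybridization batches and scan dates were not given in the sources used here. The question was which CA1 transcripts differ when the same exposure lasts 72 h instead of 24 h.

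An unfamiliar environment activates the hypothalamic-pituitary-adrenal axis, and corticosterone reaches the hippocampus, where pyramidal neurons of CA1 carry both mineralocorticoid and glucocorticoid receptors. Activity in these neurons switches on immediate early genes within minutes and slower programs of growth factor, peptide and dendritic transcripts within hours. Hormone release to an unchanging stressor usually wanes as the exposure continues, and transcripts with slow turnover may outlast it.

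Signals are MAS5 values on a linear scale, here taken to log2 after setting values below 1 to 1, so that a difference of 1 is a doubling of signal. Of 8799 probe sets, 7006 carry 1 gene symbol each and were tested, and they measure 4736 different genes. Where a gene has several probe sets, the brightest stands for it unless another is named. Differences are given as 72NES minus 24NES with the standard error of the limma fit, so that a positive value means a higher signal at 72 h.

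Median array signal ranged from 440.1 to 484.9 in 24NES and from 400.5 to 475.5 in 72NES. The lowest of these medians belonged to the 72NES array of subject 71, which also had the highest 3' to 5' signal ratios of the NES arrays, 1.26 for GAPDH and 1.76 for beta actin. In the 24NES group the array of subject 58 stood apart, with a 10th percentile of signal of 45.1 and a median correlation of 0.908 with the other NES arrays, against 0.954 to 0.975 for the remaining 15. Over the groups, the GAPDH ratio was 1.05 ± 0.112 (SD) in 72NES and 1.01 ± 0.0291 in 24NES (exact two-sided permutation test, p = 0.387, adjusted p = 0.755 over 4 array checks). The actin ratio was 1.28 ± 0.286 and 1.35 ± 0.155 (exact permutation test, p = 0.566, adjusted p = 0.755). Median signal (exact permutation test, p = 0.860, adjusted p = 0.860) and the 10th percentile (exact permutation test, p = 0.386, adjusted p = 0.755) did not pass either. Values are given for all 21 arrays of the fit. The fit without subjects 58 and 71, called the smaller set below, is printed beside a gene at an unadjusted p under 0.05 that missed it there or moved by over 1.5 times.

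**Figure D1:**
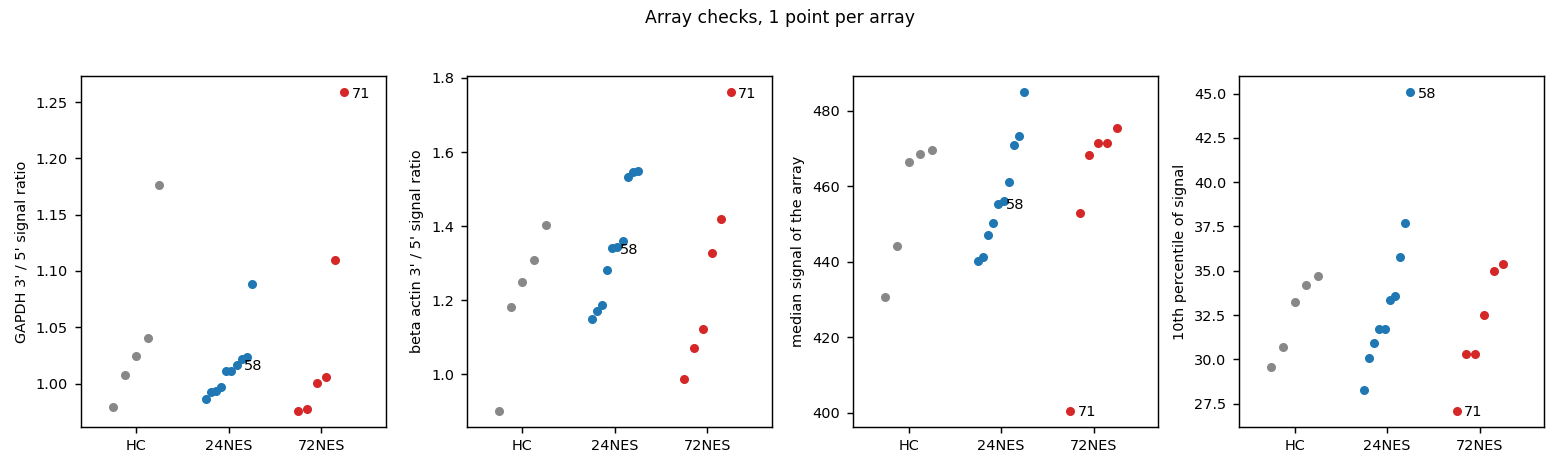
Array checks by group, 1 point per array: 3' to 5' signal ratio of GAPDH and of beta actin (no unit), median signal and 10th percentile of signal (linear MAS5 signal). Subject 71 of 72NES has the highest ratios (1.26 and 1.76) and the lowest median signal (400.5), and subject 58 of 24NES has the highest 10th percentile (45.1).

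No probe set passed the adjusted threshold between 72NES and 24NES. With limma and Benjamini-Hochberg adjustment over 7006 probe sets, 0 (0%) reached an adjusted p under 0.05, and the smallest adjusted p was 0.128. At an unadjusted p under 0.05, 240 probe sets (3.43%) were higher and 285 (4.07%) were lower at 72 h, 525 in all. Under quantile normalization the balance turned, with 314 higher and 259 lower. Counted with 1 probe set per gene, 183 of 4736 genes (3.86%) were higher and 160 (3.38%) were lower. The median difference over these genes was 0.0048 and the median absolute difference 0.136, while the median standard error was 0.168. In the upper 50% of signals the values were tighter: over 2689 genes the median absolute difference was 0.108 and the median standard error 0.131. The count without subjects 58 and 71 was 358 higher and 249 lower, and 1 probe set then passed the adjusted test.

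**Figure D2:**
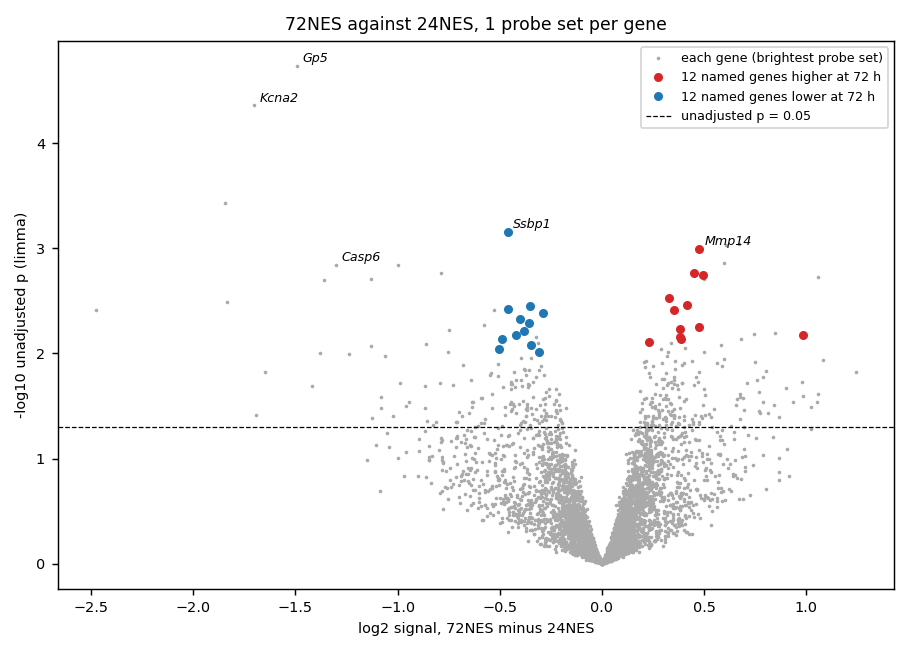
Each of 4736 genes by its difference in log2 signal between 72NES and 24NES (horizontal axis) and its -log10 unadjusted limma p (vertical axis); the dashed line marks p = 0.05. The 24 coloured genes are those named below from the upper 50% of signals, with p between 0.000693 and 0.00979, and the steepest points on the left are dim genes such as Gp5.

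The genes described next are the 12 with the smallest unadjusted p in each direction among the upper 50% of signals. All 24 miss the adjusted threshold, with adjusted p between 0.606 and 0.662, and their differences run from 0.23 to 0.98 in size. The 24NES and 72NES arrays overlapped for every one of them. Without subjects 58 and 71 the 24 genes kept their direction, and their unadjusted p lay between 0.000716 and 0.0459. Since these genes were picked by their p in this contrast, their values describe the contrast and test nothing further.

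Mmp14, a membrane-bound metalloproteinase that cuts extracellular matrix and activates other proteases, headed the genes higher at 72 h. Its log2 signal had a lowest, median and highest value of 8.55, 8.78 and 9.20 in 24NES and of 8.99, 9.20 and 9.81 in 72NES. Each of the 6 72NES arrays lay above the 24NES median and 3 lay above the whole 24NES range, for a difference of 0.47 ± 0.12 (p = 0.00101). In the 5 HC arrays it averaged 9.32 ± 0.15 (SD). Its level at 72 h was thus close to that of HC. Gnai2, which encodes an inhibitory G protein alpha subunit, had values of 12.33, 12.69 and 13.17 in 24NES and of 12.90, 13.12 and 13.54 in 72NES, a difference of 0.45 ± 0.12 (p = 0.0017). Gna15, an alpha subunit of the Gq class, differed by 0.50 ± 0.14 (p = 0.0018), with 72NES arrays from 9.33 to 9.93 and 24NES arrays from 8.63 to 9.64. For both G protein genes, 6 of 6 72NES arrays were above the 24NES median.

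Slc32a1 encodes the vesicular transporter that loads GABA into synaptic vesicles. It read 12.08, 12.32 and 12.65 in 24NES and 12.51, 12.67 and 12.83 in 72NES, a difference of 0.33 ± 0.10 (p = 0.00296), and 12.69 ± 0.07 in HC. The 72NES and HC arrays overlapped throughout, and the 24NES arrays reached lower than both. Dll1, a ligand of Notch receptors, was higher by 0.42 ± 0.13 (p = 0.00349), and Nfyc, a subunit of a CCAAT-binding factor, by 0.35 ± 0.11 (p = 0.00389). Paqr7, a membrane progestin receptor, was higher by 0.48 ± 0.15 (p = 0.00562), and Lgals9, a lectin that binds cell surface sugars, by 0.38 ± 0.12 (p = 0.0058). The 72NES arrays of Lgals9 lay close together, from 9.95 to 10.17, while the 24NES arrays spread from 9.24 to 10.15.

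Polr2a, the largest subunit of RNA polymerase II, showed the widest difference of the 24, 0.98 ± 0.33 (p = 0.00663). Its 24NES arrays also spread most, with a lowest, median and highest value of 7.24, 9.03 and 9.85, against 9.13, 9.94 and 10.30 in 72NES. Smg6, which cuts transcripts in nonsense-mediated decay, was higher by 0.38 ± 0.13 (p = 0.00691). Bak1, a pore-forming protein of the mitochondrial death pathway, was higher by 0.39 ± 0.13 (p = 0.00727). Map1lc3a, an autophagosome membrane protein, had the smallest of the 12 differences at 0.23 ± 0.08 (p = 0.00774), at a bright signal of 13.29 to 13.70 in 24NES and 13.60 to 13.83 in 72NES.

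Of the 12 genes lower at 72 h, Ssbp1 had the smallest p. It encodes the protein that covers single-stranded mitochondrial DNA during replication. Its arrays read 9.38, 9.75 and 10.07 in 24NES and 8.74, 9.34 and 9.59 in 72NES, a difference of -0.46 ± 0.12 (p = 0.000693). All 6 72NES arrays lay below the 24NES median and 3 lay below the 24NES range, and the HC arrays averaged 9.32 ± 0.06. Ndufb3, a subunit of respiratory complex I, showed a similar difference of -0.42 ± 0.14 (p = 0.00663). Here 5 of 6 72NES arrays lay below all 10 24NES arrays, and the sixth read 13.26 within a 24NES range of 12.95 to 13.65. Rfk, the kinase that turns riboflavin into flavin mononucleotide, was lower by -0.49 ± 0.16 (p = 0.00733).

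Several of the lower genes act at synapses, as does Slc32a1 among the higher ones, and the share of such genes was not tested. Gabrb1 encodes the beta 1 subunit of GABA-A receptors and read 11.74, 11.98 and 12.24 in 24NES and 11.35, 11.59 and 11.97 in 72NES. Its difference was -0.36 ± 0.11 (p = 0.00511), and 4 of 6 72NES arrays were below the 24NES range. Cadps, which primes dense core vesicles for release, differed by -0.29 ± 0.09 (p = 0.00414) between arrays of 12.53 to 13.10 in 24NES and 12.47 to 12.76 in 72NES. Syt4, a synaptotagmin of such vesicles that is induced by activity, differed by -0.31 ± 0.11 (p = 0.00979). Ntm, a cell adhesion protein of neurites, differed by -0.40 ± 0.13 (p = 0.00472), and Rapgef4, a cAMP-activated exchange factor for Rap, by -0.38 ± 0.13 (p = 0.00618).

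The remaining lower genes serve signalling, traffic and protein modification. Il6st, the shared signalling chain of interleukin 6 family receptors, differed by -0.35 ± 0.11 (p = 0.00356), and Rab14, a small GTPase of endosomal traffic, by -0.46 ± 0.14 (p = 0.00377). Nedd4, a ubiquitin ligase, differed by -0.34 ± 0.12 (p = 0.0084), and Ogt, which adds N-acetylglucosamine to intracellular proteins, by -0.50 ± 0.17 (p = 0.00913). For these last 2 genes the arrays of subjects 58 and 71 carried part of the difference, which was -0.21 for Nedd4 and -0.34 for Ogt without them. Other named genes also moved without these arrays. The difference was smaller in size for Mmp14 (0.35) and Rab14 (-0.36) and larger for Gna15 (0.56) and Ntm (-0.48).

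**Figure D3:**
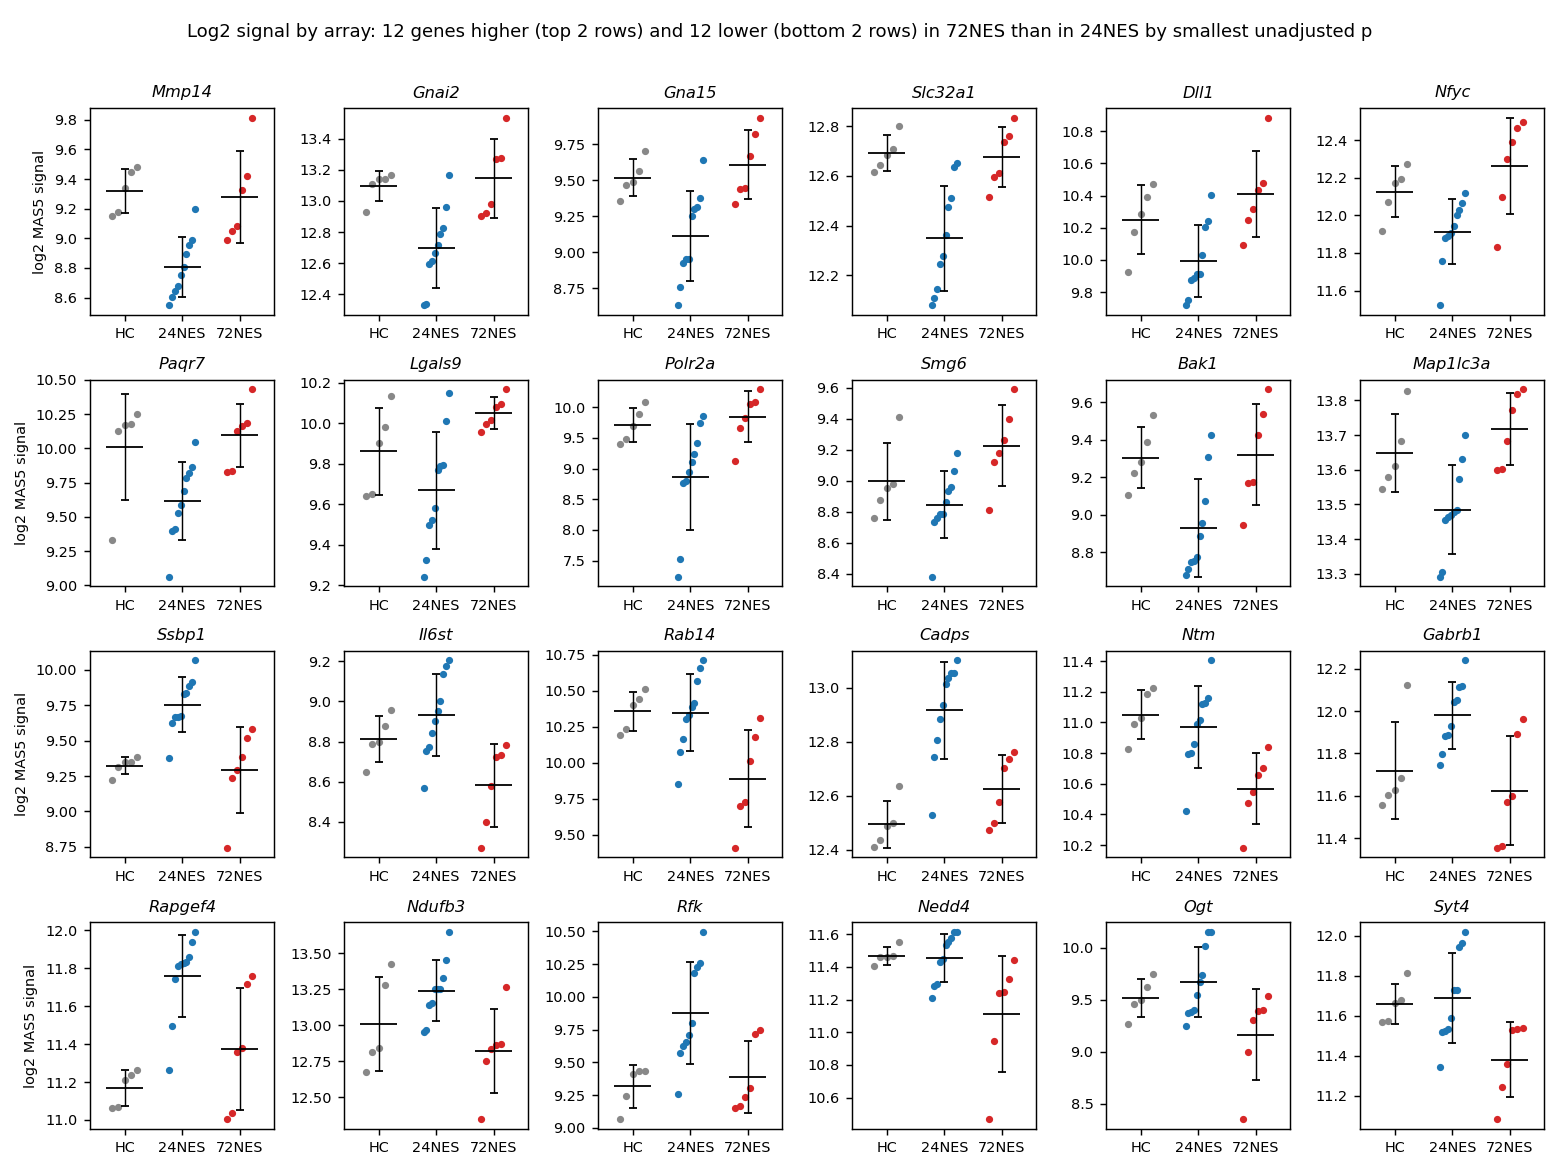
Log2 MAS5 signal of the 24 genes in each of 5 HC, 10 24NES and 6 72NES arrays (points), with the group mean (wide line) and SD (bar). In every panel the 24NES and 72NES points overlap; Mmp14 ranges from 8.55 to 9.20 in 24NES and from 8.99 to 9.81 in 72NES.

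The smallest p-values of all fell on dim probe sets outside the upper 50% of signals, and those genes were chosen after their values were seen. Gp5, a platelet surface glycoprotein, read 6.48, 7.64 and 8.05 in 24NES and 5.48, 5.56 and 7.26 in 72NES, a difference of -1.49 ± 0.27 (limma adjusted p = 0.128). Kcna2, a voltage-gated potassium channel of axons, read 5.59, 6.42 and 7.08 in 24NES and 3.51, 4.39 and 6.01 in 72NES, a difference of -1.70 ± 0.33 (adjusted p = 0.152). In both, 5 of 6 72NES arrays lay below the 24NES range and the sixth lay within it. One probe set of Casp6, an executioner caspase, had a difference of -1.30 ± 0.35 with all arrays and of -1.78 without subjects 58 and 71, and it alone then passed the adjusted test (adjusted p = 0.0172). Ptpn11, a phosphatase of growth factor signalling, had 5 probe sets, not all on the same side of 0. At an unadjusted p under 0.05, 2 were lower. One of those 2 differed by -1.81 ± 0.45 (p = 0.000631), with 72NES arrays from 4.09 to 7.54 and 24NES arrays from 5.06 to 7.67. Which of these genes passed thus turned on which array was left out. Gp5 passed without 24NES subject 67 or 72NES subject 70, and this Ptpn11 probe set without 72NES subject 69. Casp6 passed without 72NES subject 71, and Kcna2 without 72NES subject 73.

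Several genes are read by more than 1 probe set on this array, which allows a look at the same gene by separate probes within each animal. Of 1565 genes with at least 2 probe sets, 787 had all of them on the same side of 0. In 9 genes at least 2 probe sets were higher at an unadjusted p under 0.05, in 11 at least 2 were lower, and in 5 genes probe sets at that level lay on opposite sides. Probe sets of a gene are read from the same RNA and are not replicates.

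Homer1 encodes a postsynaptic scaffold protein whose short activity-induced form uncouples metabotropic glutamate receptors, a transcript known to rise with time awake. Its 6 probe sets were all lower at 72 h. Of 144 genes with 4 or more probe sets, 27 had all of theirs on one side of 0. AF093268_s_at read 10.54, 10.74 and 11.27 in 24NES and 10.18, 10.35 and 10.74 in 72NES, a difference of -0.42 ± 0.12 (p = 0.00163), with 4 of 6 72NES arrays below the 24NES range. AF093267_s_at gave -0.44 ± 0.13 (p = 0.00345). The brightest, AB017140_at, gave only -0.06 ± 0.09 (p = 0.495), and the other three lay between -0.23 and -0.04. Which transcript form each probe set reads was not analysed here. Without subjects 58 and 71, AF093268_s_at gave -0.33 (p = 0.00766) and AF093267_s_at -0.33 (p = 0.0216).

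S100a1, a calcium sensor of the S100 family, was higher at 72 h by all 4 of its probe sets. S68809_s_at read 10.83, 11.24 and 11.62 in 24NES and 11.24, 11.66 and 11.69 in 72NES, a difference of 0.34 ± 0.11 (p = 0.0082). The brightest gave 0.22 ± 0.12 (p = 0.0841) and the remaining pair gave 0.25 and 0.27. The smaller set gave values from 0.17 to 0.34 over the 4. Vamp2, the vesicle SNARE of fast transmitter release, was higher by both probe sets, 0.28 ± 0.12 (p = 0.0363) and 0.26 ± 0.11 (p = 0.0281), and both gave 0.25 in the smaller set (p = 0.0794 and 0.0508). Gnai2 was higher by its 3 probe sets, between 0.11 and 0.45.

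Map2, a microtubule protein of dendrites, was lower by all 5 probe sets, between -0.85 and -0.21. Its brightest, U30938_at, read 13.18, 13.60 and 14.00 in 24NES and 13.12, 13.45 and 13.53 in 72NES. The widest difference, -0.85 ± 0.26 (p = 0.00389), came from the dim S74265_s_at, whose 72NES arrays spread from 5.78 to 8.06. These values moved with the arrays that stood apart: without subjects 58 and 71, S74265_s_at gave -0.54 and rc_AI228850_s_at turned from -0.37 to 0.05, while U30938_at gave -0.26.

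**Figure D4:**
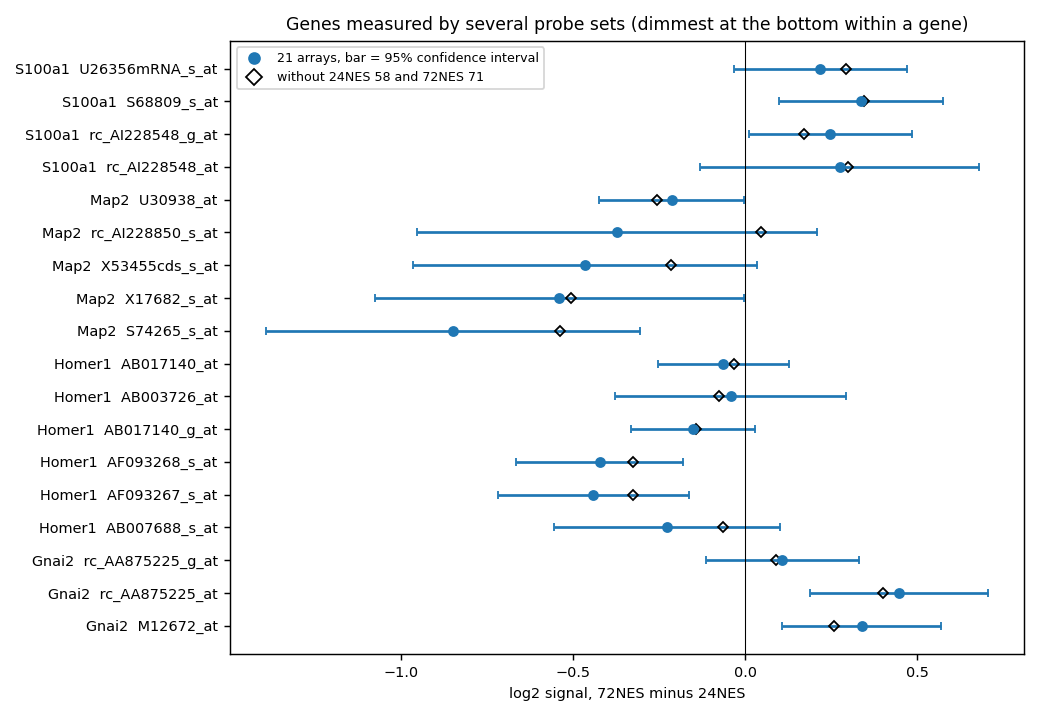
Difference in log2 signal, 72NES minus 24NES, for each probe set of Gnai2, Homer1, Map2 and S100a1, with its 95% confidence interval over the 21-array fit and, as an open diamond, the value without subjects 58 and 71. All 6 Homer1 points lie below 0 and all 4 S100a1 points above it, and 1 Map2 probe set crosses 0 in the smaller set.

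Gene lists were read by counts and medians with 1 probe set per gene, beside the 3.86% higher and 3.38% lower at an unadjusted p under 0.05 and the median of 0.0048 over all genes. No member of any list passed the adjusted test. Over 34 lists the median differences ran from -0.12 to 0.12, with 11 above and 23 below 0. Without subjects 58 and 71, 10 of the 34 medians changed sign, so the sign of a small median is not a stable property of these arrays. In the upper 50% of signals 6 medians had the other sign. Of 52 list genes at an unadjusted p under 0.05, all 52 kept their direction in the smaller set and 29 kept that p. Over all genes the smaller set held 5.36% higher and 3.38% lower at that p.

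Genes of the stress hormone axis were read as transcripts only, since no hormone level is given for NES rats. Of 15 glucocorticoid-induced genes, 8 were higher and 7 lower at 72 h, with a median of 0.0031 and none at an unadjusted p under 0.05. Sgk1, a kinase that corticosteroids induce, read 10.80, 11.37 and 12.07 in 24NES and 11.09, 11.16 and 11.87 in 72NES, a difference of -0.15 ± 0.17 (p = 0.376). Sult1a1, a sulfotransferase, gave -0.13 ± 0.13 (p = 0.358), and Cebpd, a hormone-responsive transcription factor, gave 0.19 ± 0.12 (p = 0.137). The 95% interval of Sgk1 ran from -0.50 to 0.20, so a difference inside those bounds could not be told from none with these arrays. No tested probe set carried the symbol Fkbp5 or Ednrb, and neither gene was analysed here.

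Nr3c1, the glucocorticoid receptor itself, read 8.22, 8.65 and 8.94 in 24NES and 8.00, 8.33 and 8.80 in 72NES, a difference of -0.23 ± 0.15 (p = 0.127). Of its other probe sets, both dimmer, one gave 0.15 ± 0.26 and one gave -0.25 ± 0.17. Among 17 genes of corticosteroid receptors and axis peptides, 9 were higher with a median of 0.011. Only Mc4r, a melanocortin receptor, reached an unadjusted p under 0.05 (0.68 ± 0.23, p = 0.00727), at a dim signal of 4.73 to 5.76 in 24NES and 5.11 to 6.58 in 72NES. In the smaller set 8 of the 17 were higher, with a median of -0.0055. There 3 were higher and 0 lower at that p, against 5.36% and 3.38% of all genes.

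Among 28 immediate early and activity-induced genes, 12 were higher and 16 lower, with a median of -0.042, and 3 were higher at an unadjusted p under 0.05 against none lower. Fosl2, an AP-1 subunit of late and lasting induction, read 7.76, 8.58 and 8.89 in 24NES and 8.77, 9.05 and 9.23 in 72NES. Its difference was 0.60 ± 0.16 (p = 0.00138), and 5 of 6 72NES arrays lay above all 24NES arrays. Fosl1, its close relative, gave 0.39 ± 0.14 (p = 0.0129) at a dim signal, and Ier3, a survival-related early gene, gave 0.35 ± 0.14 (p = 0.018). In the smaller set these differences were 0.58, 0.48 and 0.33, and the list then held 6 genes higher at that p and none lower, with 13 higher and 15 lower in all. Bdnf, the neurotrophin of activity-dependent plasticity, gave -0.25 ± 0.12 (p = 0.0562).

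In the circadian clock list, 9 of 11 genes were lower with a median of -0.098, but without subjects 58 and 71 the split was 5 higher and 6 lower. The one gene at an unadjusted p under 0.05 lay on the other side: Nr1d1, the clock repressor REV-ERB alpha, gave 0.25 ± 0.12 (p = 0.0452). Per2, a core repressor whose transcript also answers to stress hormone and time awake, read 9.23, 9.73 and 10.39 in 24NES and 8.88, 9.54 and 9.95 in 72NES. The difference was -0.28 ± 0.17 (p = 0.128), and 4 of 6 72NES arrays were below the 24NES median, so the groups were not separated beyond their spread. Nr1d2 and Bhlhe40, further clock repressors, gave -0.25 ± 0.21 and -0.15 ± 0.09. Per the study's text, corticosterone was read at the low point of its daily rhythm in trunk blood. Those values come from HC and SD rats of the other cohort, and none is given for NES rats. A clock hour for each array was not given in the sources used here.

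Cytosolic and mitochondrial heat shock proteins were mostly lower, 14 of 18 with a median of -0.10, and 15 of 18 were lower without subjects 58 and 71. None of those 14 reached an unadjusted p under 0.05. Cryab, a small chaperone, gave -0.27 ± 0.14 (p = 0.0618), Hspa4 gave -0.19 ± 0.11 (p = 0.116) and mitochondrial Hspd1 gave -0.17 ± 0.11 (p = 0.118). Hspb1, another small chaperone, was higher by 0.24 ± 0.10 (p = 0.029). Endoplasmic reticulum chaperones were split, 6 higher and 8 lower, with a median of -0.052.

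A list of cold-responsive and other RNA binding proteins had the lowest median of the 34 lists, -0.12, with 12 of 15 lower, and -0.19 without subjects 58 and 71. Ybx1 and Hnrnpa1, proteins that package and splice transcripts, reached an unadjusted p under 0.05 at -0.42 ± 0.16 (p = 0.018) and -0.30 ± 0.14 (p = 0.0391), and neither did without subjects 58 and 71 (p = 0.0879 and 0.0509). Cirbp, the cold-inducible RNA binding protein, read 9.78, 10.22 and 10.65 in 24NES and 9.75, 9.88 and 10.43 in 72NES, a difference of -0.22 ± 0.12 (p = 0.0871). Elavl4, a neuronal protein that stabilizes transcripts, went the other way at 0.17 ± 0.08 (p = 0.0537).

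The lists of release, postsynaptic, glutamate receptor and GABA receptor genes had medians from -0.11 to -0.037, and 2 of these 4 medians, for release and postsynaptic genes, came to -0.012 and -0.0021 without subjects 58 and 71. Of 55 presynaptic release genes, 22 were higher and 33 lower, and 3 in each direction reached an unadjusted p under 0.05. Slc32a1, Vamp2 and the synaptotagmin Syt5 (0.33 ± 0.14) were higher. Syt4 and the syntaxins Stx3 (-0.64 ± 0.25, dim) and Stx8 (-0.30 ± 0.13) were lower. Syt5 gave 0.26 (p = 0.104) and Stx3 -0.54 (p = 0.0678) in the smaller set. Of 29 postsynaptic and dendritic genes, 10 were higher, with Dlg4, Homer3, Camk2a and Map2 at that p. Dlg4, which encodes PSD-95, was higher by 0.31 ± 0.13 (p = 0.0263), with 24NES arrays from 11.90 to 12.63 and 72NES arrays from 12.48 to 12.90. Homer3 (-0.44 ± 0.17, p = 0.0194) and Camk2a, the alpha subunit of CaM kinase II (-0.43 ± 0.19, p = 0.0313), were lower. In the smaller set Dlg4 gave 0.34, Homer3 -0.26 (p = 0.119) and Camk2a -0.33 (p = 0.0847).

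Glutamate receptor subunits were lower in 10 of 15 genes with a median of -0.11, and Gria4, an AMPA receptor subunit, was lower by -0.36 ± 0.14 (p = 0.0196). Without subjects 58 and 71 the split was 7 higher and 8 lower, and Gria4 gave -0.21 (p = 0.112). GABA receptor subunits were lower in 10 of 14 genes with a median of -0.037, which was 0.016 without those subjects and -0.17 over the 9 genes in the upper 50% of signals. Gabrb1, described above, was the one at an unadjusted p under 0.05, and Gabra5 and Gabra2, both alpha subunits, gave -0.17 ± 0.09 and -0.27 ± 0.14. Of 45 receptors for amines, acetylcholine, orexin and adenosine, 21 were higher, with a median of -0.013. That median was 0.062 over the 19 in the upper 50% of signals and 0.0095 in the smaller set. Hcrtr2, an orexin receptor of arousal circuits, was the one below that p: it read 7.41, 7.74 and 8.22 in 24NES and 6.33, 7.00 and 7.58 in 72NES, a difference of -0.79 ± 0.22 (p = 0.00171), and -0.80 without subjects 58 and 71.

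Neuropeptides and granule proteins were evenly split, 15 of 28 higher with a median of 0.0041. Scg2, the secretogranin precursor that is induced with neuronal activity, was lower by -0.27 ± 0.11 (p = 0.0234). Its arrays read 12.32, 12.58 and 12.83 in 24NES and 11.88, 12.30 and 12.68 in 72NES, with 4 of 6 72NES arrays below the 24NES range and the other two within it. Pdyn, the dynorphin precursor, was higher by 0.36 ± 0.17 (p = 0.0492), and Nppa, the natriuretic peptide precursor, by 0.38 ± 0.17 (p = 0.0333). Both missed that threshold in the smaller set, at 0.36 (p = 0.0848) and 0.33 (p = 0.0724). Sst, the somatostatin precursor of interneurons, gave 0.20 ± 0.10 (p = 0.0721). Neurotrophins and their receptors had no member at an unadjusted p under 0.05 among 25, with a median of -0.011 that was 0.066 in the smaller set.

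Of the lists for energy and protein supply, ribosomal proteins had 5 of 41 genes lower at an unadjusted p under 0.05, above the 3.38% of all genes. Glycolysis was higher in 11 of 17 genes with a median of 0.054 and none at an unadjusted p under 0.05. Oxidative phosphorylation was lower in 21 of 33 genes with a median of -0.035, with Cox4i2, a cytochrome oxidase isoform, higher (0.45 ± 0.18) and Ndufa5 of complex I lower (-0.23 ± 0.11). These gave 0.39 (p = 0.0552) and -0.16 (p = 0.116) in the smaller set. Ribosomal proteins were lower in 24 of 41 genes with a median of -0.054, none was higher at that p, and 4 were lower at it without subjects 58 and 71. Rps6 (-0.21 ± 0.09, p = 0.0312) and Rpl35a (-0.28 ± 0.12, p = 0.0265) were bright, and Rpl30 (-1.13 ± 0.39, p = 0.00846) was dim and spread from 5.97 to 8.69 in 72NES. Rpl17 (-0.27 ± 0.12) and Rpl19l4 (-0.57 ± 0.26) made up the 5, and gave -0.12 (p = 0.232) and -0.59 (p = 0.0576) in the smaller set. Processed pseudogenes of ribosomal genes are numerous, and probe sets may read more than 1 copy. Cholesterol synthesis (10 of 15 higher, median 0.026), the proteasome (13 of 24 lower, median -0.040), antioxidant enzymes (14 of 27 lower, median -0.0078) and ion pumps (7 of 12 lower, median -0.0067) held 2 genes below that p between them, Psma6 (-0.22 ± 0.10, and p = 0.0636 in the smaller set) and Atp2a3 (0.26 ± 0.12). The antioxidant median was 0.023 in the smaller set.

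Of 41 interferon, cytokine and complement genes, 24 were higher with a median of 0.034, with 2 higher and 3 lower at an unadjusted p under 0.05. Il6st and Il1rap, chains of cytokine receptors, were lower, the second by -0.44 ± 0.18 (p = 0.0219), and so was the chemokine Ccl3 at a dim signal (-0.68 ± 0.25). C1qb and C1qc, complement components made by microglia, were higher by 0.22 ± 0.10 (p = 0.0469) and 0.32 ± 0.15 (p = 0.0478). The smaller set gave 0.13 for C1qb (p = 0.208), 0.26 for C1qc (p = 0.0882) and -0.35 for Il1rap (p = 0.0786). Extracellular matrix genes were split, 18 of 34 higher with a median of 0.025 (-0.013 in the smaller set) and 3 in each direction at that p. Mmp14, its inhibitor Timp2 (0.28 ± 0.13) and the proteoglycan Bgn (0.26 ± 0.12, and p = 0.0716 in the smaller set) were the higher, and Tnr (-0.99 ± 0.39), Mmp16 (-0.34 ± 0.14) and the proteoglycan Vcan (-0.64 ± 0.28) were the lower. Neurogenesis and differentiation genes had none at that p among 34, with a median of -0.058. That median was 0.040 in the upper 50% of signals and 0.015 in the smaller set.

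Cell type markers were read to see whether the dissected tissue differed between groups, and in whole tissue fewer cells of a type and less RNA per cell cannot be told apart. Among 13 neuronal markers 8 were lower, with a median of -0.024. In the smaller set 7 were higher and 6 lower, with a median of 0.0047. Over all arrays, the summed linear signal of these markers ranged from 132100 to 165915 in 24NES and from 128374 to 157209 in 72NES. The CA1 marker Spink8 was dim in all groups (3.43 to 5.75 in 24NES), so this array does not show CA1 identity by that gene, while the more general Camk2a was bright at 9.73 to 11.05. Dentate markers were split evenly by sign, 4 of 8 each way with a median of 0.040 (-0.063 in the upper 50% of signals). Of these 8, 2 were higher and 1 was lower at an unadjusted p under 0.05, against 3.86% and 3.38% of all genes. In the smaller set 1 was higher and 0 lower at that p. Dentate sums were 13065 to 17270 in 24NES and 13639 to 17963 in 72NES. CA3 and CA2 markers were also split 4 to 4, with a median of -0.026 (0.031 in the upper 50% of signals, 0.058 in the smaller set) and sums of 15286 to 18490 and 15241 to 19081. Calb2, a calcium binding protein of interneurons and mossy cells, was higher by 0.36 ± 0.13 (p = 0.0117) and stands in both the dentate and the interneuron list.

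Interneuron markers were higher in 7 of 13 genes with a median of 0.073, which was -0.0039 in the upper 50% of signals, and Slc32a1 and Calb2 were the 2 at an unadjusted p under 0.05. Their summed signal ranged from 37119 to 44479 in 24NES and from 40087 to 48621 in 72NES. Slc32a1 is itself part of these sums, and the part of interneuron content in its difference was not tested. Oligodendrocyte markers were lower in 11 of 16 genes with a median of -0.093, though the 2 at that p, Gjb1 (0.35 ± 0.14) and Myrf (0.25 ± 0.12), were higher. In the smaller set Myrf gave 0.15 (p = 0.199), and the list had 7 higher and 9 lower with a median of -0.043. Their sums ranged from 108838 to 127395 in 24NES and from 98256 to 131370 in 72NES. Astrocyte markers (8 of 18 higher, median -0.036) had no member at that p, with sums of 197909 to 272227 and 214012 to 274910.

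Microglial markers were lower in 7 of 12 genes with a median of -0.028. C1qb and C1qc were higher and P2ry12, a purine receptor of resting microglia, was lower (-0.42 ± 0.19), and none of the 12 stood below an unadjusted p of 0.05 without subjects 58 and 71. Their sums ranged from 15785 to 25381 in 24NES and from 21282 to 24868 in 72NES. Endothelial and mural markers were lower in 12 of 19 genes with a median of -0.084, with Kdr, a receptor of vascular growth factor, lower by -0.37 ± 0.17 (p = 0.0394) and Myh11, smooth muscle myosin, by -0.71 ± 0.33 (p = 0.0448). In the smaller set the list had 10 higher and 9 lower, with a median of 0.012. Over all arrays, the sums of these markers were 14918 to 17195 in 24NES and 14610 to 16868 in 72NES. Choroid plexus and meningeal markers (12 of 20 higher, median 0.10, and 0.14 in the smaller set) had sums of 16877 to 21266 and 17434 to 24534. Among these 20, 1 was higher and 0 lower at an unadjusted p under 0.05, and 0 either way in the smaller set. Ttr, the defining choroid plexus transcript, lay on the other side at -0.52 ± 0.29 (p = 0.0891). Blood cell markers (4 of 7 higher, median 0.12) had sums of 7237 to 16711 and 10936 to 16027, with Alas2 of red cells higher by 0.33 ± 0.15 (p = 0.0374, and 0.0884 in the smaller set). The ranges of the 2 groups overlapped for all 10 marker lists, and their part in single genes was not tested.

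**Figure D5:**
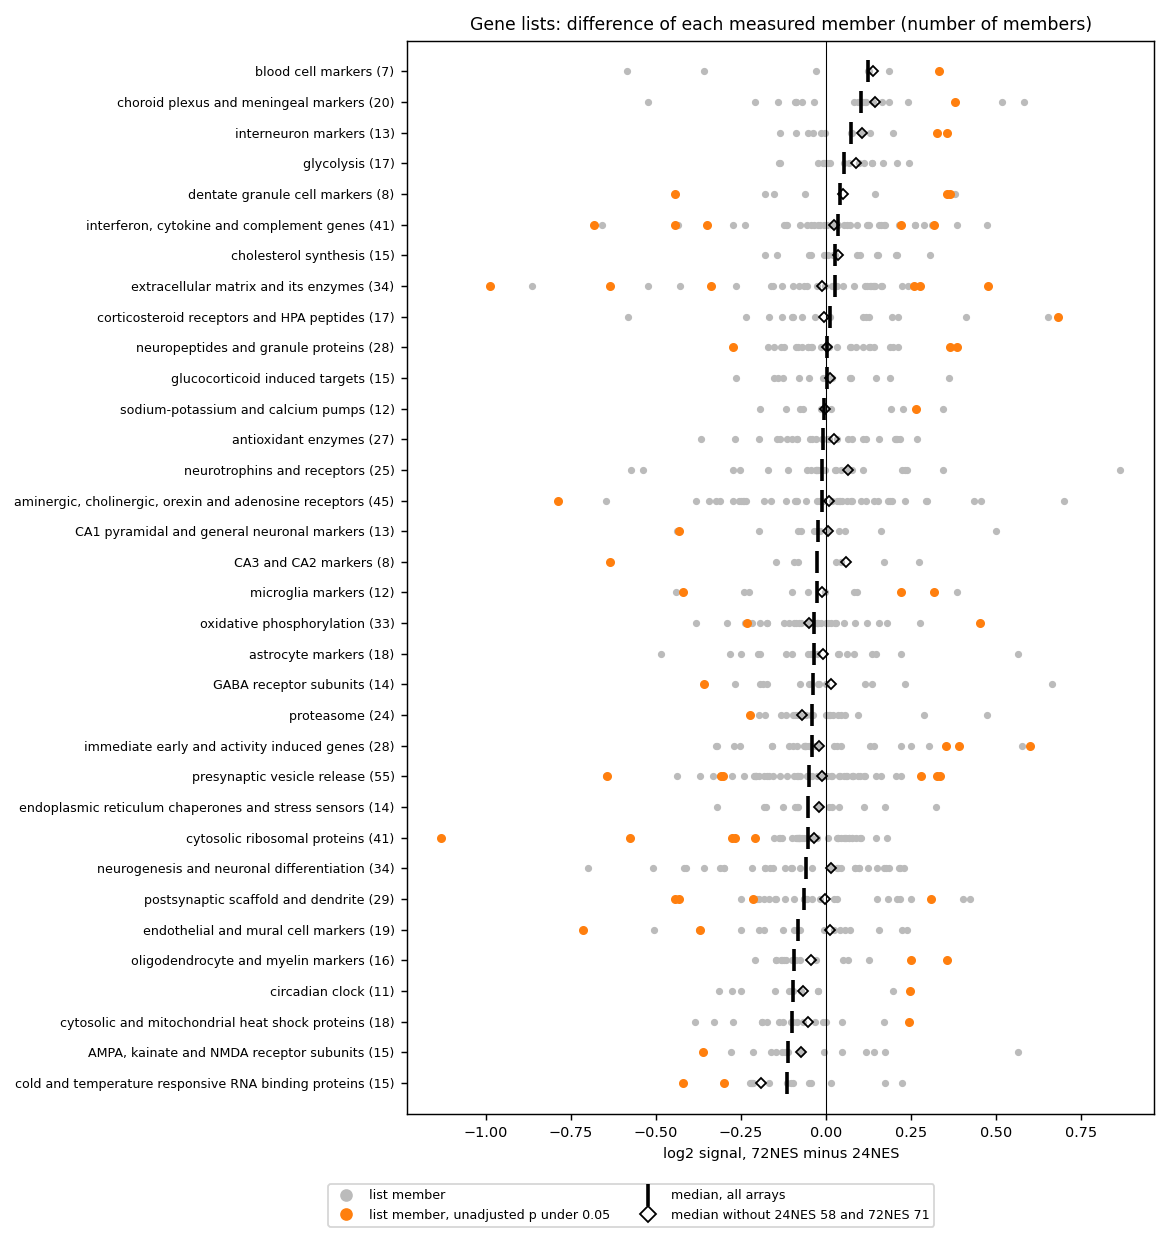
Difference in log2 signal, 72NES minus 24NES, of every measured member of the 34 lists (grey points; orange where the unadjusted limma p is under 0.05), with the list's median over all arrays (bar) and without subjects 58 and 71 (open diamond). Medians lie between -0.12 and 0.12, and single members spread far beyond them.

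Against the home cage, the shorter exposure showed more probe sets below the unadjusted threshold than the longer one. At 24 h, 787 of 7006 probe sets (11.2%) differed from HC at an unadjusted p under 0.05, and at 72 h 374 (5.34%) did, and neither comparison had a probe set past the adjusted threshold, with smallest limma adjusted p of 0.0892 and 0.0596. Both comparisons use the same 5 HC arrays, carry the difference in avoidance training, and rest on 10 and 6 NES arrays, so the gap between these counts is not a test of duration. That test is the direct contrast above. For single genes the 2 comparisons are set side by side. Per2 was 0.75 ± 0.18 above HC at 24 h and 0.47 ± 0.20 at 72 h, Sgk1 0.52 ± 0.18 and 0.37 ± 0.20, and Sult1a1 0.40 ± 0.14 and 0.27 ± 0.16. The unadjusted p of these differences at 24 h and 72 h was 0.000606 and 0.0315 for Per2, 0.00775 and 0.0717 for Sgk1, and 0.0112 and 0.101 for Sult1a1. Cirbp differed from HC by -0.17 ± 0.13 at 24 h (p = 0.218) and by -0.39 ± 0.15 at 72 h (p = 0.0142).

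For the named genes of the direct contrast the same pair of values took several forms. Mmp14 was -0.51 ± 0.13 from HC at 24 h and -0.04 ± 0.15 at 72 h, and Ssbp1 was 0.43 ± 0.12 and -0.03 ± 0.14, so that both lay near HC at 72 h. Cadps was 0.42 ± 0.10 and 0.13 ± 0.11, and Rapgef4 0.59 ± 0.13 and 0.21 ± 0.15. Rab14 and Ntm ran the other way, near HC at 24 h (-0.01 ± 0.15 and -0.08 ± 0.13) and below it at 72 h (-0.47 ± 0.16 and -0.48 ± 0.15). The 24NES arrays enter both the choice of these genes and their distance from HC, so the direction of that distance is partly fixed by the choice.

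The change from 24 to 72 h was also set against the same change in sleep deprivation, where 8 72SD and 8 24SD arrays of cohort 1 share no animal with the NES groups. The difference of the 2 changes reached an adjusted p under 0.05 for none of 7006 probe sets by limma, with a smallest adjusted p of 0.911, and an unadjusted p under 0.05 for 371 (5.30%). Mmp14, 0.47 higher at 72 h in NES, changed by 0.00 ± 0.12 in SD, and Gnai2 by -0.05 ± 0.13. Slc32a1 changed by 0.03 ± 0.10 in SD and Ssbp1 by -0.12 ± 0.10. These genes were picked by their p in NES and not in SD. A smaller change in SD is thus partly fixed by the choice and does not show a change particular to NES. By its brightest probe set Homer1 changed by 0.10 ± 0.07 in SD against -0.06 ± 0.09 in NES (unadjusted p = 0.135 for the difference), and S100a1 by 0.04 ± 0.10 against 0.22 ± 0.12 (unadjusted p = 0.233). Over all their probe sets the NES change minus the SD change ran from -0.55 to -0.16 for the 6 of Homer1 and from 0.18 to 0.39 for the 4 of S100a1. The unadjusted limma p of these differences ran from 0.0166 to 0.352 for Homer1 and from 0.0143 to 0.233 for S100a1. None of them passed the adjusted threshold. Bak1 had like values in both, 0.32 ± 0.13 in SD and 0.39 ± 0.13 in NES. Sult1a1 changed by -0.47 ± 0.12 in SD and by -0.13 ± 0.13 in NES (unadjusted p = 0.0538 for the difference, adjusted p = 0.911).

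Promoter windows from RefSeq (GRCr8, 250 bases before to 50 after the start) were read for motifs of clock, activity and stress factors. Of 148 named genes, 113 had a window by symbol. On either strand, the E-box CACGTG stood in 7 of 113 (6.42% of all 33469 windows), the cAMP response element TGACGTCA in 2 (1.83%), the D-box TTATGTAA in 1 (0.893%), the heat shock element in 1 (0.798%) and the glucocorticoid receptor motif AGAACA in 17 (20.7%). A match is a string of letters and not a site shown to be used. The windows of Scg2, Sst and Per2 are shown because they hold the cAMP response element or the D-box and the genes are described above, and the motif is in capitals. Scg2 and Sst share the element while their differences have opposite signs, -0.27 and 0.20. The windows are chr9:88256817-88257116 on the minus strand for Scg2, chr11:90461296-90461595 on the plus strand for Sst and chr9:99496944-99497243 on the minus strand for Per2, each printed 5′ to 3′ along the gene.
Scg2: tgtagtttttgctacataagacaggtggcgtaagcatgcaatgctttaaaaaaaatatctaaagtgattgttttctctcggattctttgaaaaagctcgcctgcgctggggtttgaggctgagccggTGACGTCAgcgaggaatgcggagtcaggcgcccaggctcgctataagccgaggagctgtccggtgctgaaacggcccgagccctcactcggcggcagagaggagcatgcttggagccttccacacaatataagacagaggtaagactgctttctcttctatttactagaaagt
Sst: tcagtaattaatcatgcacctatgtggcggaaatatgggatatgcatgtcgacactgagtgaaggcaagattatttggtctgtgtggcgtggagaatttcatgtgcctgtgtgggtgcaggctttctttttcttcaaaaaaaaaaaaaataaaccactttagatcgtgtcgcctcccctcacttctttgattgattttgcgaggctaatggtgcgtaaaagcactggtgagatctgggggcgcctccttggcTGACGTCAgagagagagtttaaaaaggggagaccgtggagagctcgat
Per2: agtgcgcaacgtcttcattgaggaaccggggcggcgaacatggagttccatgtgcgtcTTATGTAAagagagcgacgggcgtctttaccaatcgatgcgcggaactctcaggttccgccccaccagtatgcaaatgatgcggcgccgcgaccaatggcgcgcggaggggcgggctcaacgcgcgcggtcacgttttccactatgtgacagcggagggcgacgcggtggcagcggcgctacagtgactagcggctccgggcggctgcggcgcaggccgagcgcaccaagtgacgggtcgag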

How the data were processed

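The authors made the intensity values with MAS5 (version not given in the sources used here) as 1 linear signal per probe set and array, each array scaled as a whole, and deposited them without log transformation. Of 8799 probe sets, 59 are controls, 308 carry several gene symbols and 1426 none here, which leaves 7006 with 1 symbol (4736 genes, 99.7% matched to RefSeq by gene number). No signal of the 21 arrays used was 0. Groups came from the labels. The members, lists and named-gene rule were chosen with earlier results of these data known.

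Log2 signals (floor 1) of 5 HC, 10 24NES and 6 72NES arrays were fitted with limma 3.58.1 in R 4.3.3 (lmFit, eBayes), with Benjamini-Hochberg adjustment across the 7006 probe sets and a threshold of 0.05. The change in NES against that in SD was fitted over 37 arrays of cohort 1. Array checks used exact permutation tests in scipy 1.17.1. Scripts were tested on simulated data. Named genes were the 12 per direction with the smallest unadjusted p in the upper 50% of signals (brightest probe set per gene), up to 4 per list, and Per2, Homer1, Cirbp, S100a1, Sgk1, Sult1a1 and Nr3c1. The rule also listed Ednrb and Fkbp5, symbols that no tested probe set carried. Other genes are said to be chosen later. Alternatives were other normalizations, floors, filters, variance models, sample sets and each NES array left out. The number of arrays limits the precision. Detection calls were not used here.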

Additional observations from a re-analysis of the deposited data

Results flagged for a closer look

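Of 78 groups of arrays tested for 1 array far from the rest, 4 stood out, where chance gives about 1 in 20. Among the array checks, subject 60 of 24NES had a GAPDH 3' to 5' ratio of 1.09 against 1.02 for the next array, and subject 71 of 72NES had a median signal of 400.5 against 452.8. Among the genes, Sult1a1 read 10.01 in subject 66 of 24NES against 10.55 in the next array, and the Ptpn11 probe set read 7.54 in subject 69 of 72NES against 5.26. Their part in other results was not tested beyond leaving out each array in turn.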

How the results depend on the processing

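The count of probe sets past the adjusted test between 72NES and 24NES was 0 by limma, with 525 at an unadjusted p under 0.05, and stayed at 0 under quantile normalization (314 higher and 259 lower at that p, against 240 and 285), median centring, a floor of 50, both signal filters, every probe set, both other variance models and both other sample sets. It was 1 with the GAPDH ratio as a covariate (Casp6) and 1 without subjects 58 and 71 together (Casp6), a setting chosen after seeing the data that gave 358 higher and 249 lower at an unadjusted p under 0.05. Leaving out 1 NES array gave 0 to 1 such probe sets and 320 to 699 at an unadjusted p under 0.05 (125 to 334 higher, 195 to 374 lower). The lowest total of 320, with 125 higher, came without 72NES subject 68. The upper 50% of signals gave 239 (146 higher, 93 lower) of 2689 genes and the upper 40% gave 205 (125 higher, 80 lower) of 2172, fewer since fewer genes are tested. A 1-way analysis of linear signals between the 72NES and 24NES arrays gave 673 with removal of outlying values (406 higher, 267 lower) and 461 without. The study's own 1-way test also took in HC arrays and used filtered genes, so it was not repeated here. With the upper 50% of signals, 24NES against HC had 12 adjusted calls and 407 at an unadjusted p under 0.05, 72NES against HC had 161 and the comparison with the SD change had 126. Leaving out 1 array, that last comparison had 276 to 494 and no adjusted call. Without subject 71 the GAPDH ratio difference turned from 0.0405 to -0.00032, the actin ratio difference went from -0.0648 to -0.161 (exact permutation p = 0.566 and 0.0979), and that of median signal turned from -1.35 to 9.89. Of 35 probe sets checked, which leave out genes named only from lists, none changed sign under any of 28 alternatives. Among them, 4 passed the adjusted test under at least 1. Most of the 35 were picked by their p in this contrast, so keeping their sign was partly fixed by the choice. Outside the 35, the Map2 probe set rc_AI228850_s_at turned from -0.37 to 0.05 without subjects 58 and 71. No paired analysis was possible because subject numbers are not shared between groups. In 1 list, neurogenesis, the median moved by more than the spread between arrays.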
